A study of Mus musculus with 18 samples.

Results

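The 35 genes described here encode the regulator pair NRF2 and KEAP1, targets of NRF2 and the main antioxidant enzymes of the mouse, out of 53465 genes counted in each library. They were taken as a list of symbols by function, and all 35 matched a gene identifier of the deposited count tables. By role they were 2 regulators, 5 genes of glutathione synthesis and recycling, 4 of the thioredoxin system, 6 peroxiredoxins, 4 superoxide dismutases and catalase, 3 glutathione peroxidases, 6 glutathione transferases and 5 genes of quinone, haem, iron and NADPH metabolism. Bulk RNA came from wild-type C57BL/6J mice and from their skeletal muscle (several muscles, which the labels do not name), white adipose tissue and brown adipose tissue. Each tissue had 3 vehicle and 3 quercetin libraries, which made 6 groups and 18 libraries. The treated mice received quercetin, a plant flavonol, by oral gavage at 0.125 mg/kg, and the control mice received its vehicle, 10% PEG400 in phosphate-buffered saline. All mice were wild type and ate normal chow. The treatment is called long-term, and the sources used here do not give its length, the age and sex of the sequenced mice, the fat depot or the number of animals per library. An age of 14 months, male sex and weekly dosing are stated for the lifespan experiment alone.

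NRF2, encoded by Nfe2l2, is a transcription factor that KEAP1 holds in the cytosol and passes to a ubiquitin ligase for destruction. Electrophiles and oxidants modify cysteines of KEAP1, after which NRF2 accumulates, pairs with small MAF proteins and binds antioxidant response elements in front of genes for glutathione synthesis, thioredoxin recycling and quinone reduction. Brown fat oxidises fuel at high rates in its many mitochondria, which are a source of superoxide. Quercetin is itself a redox-active compound and is often studied as an inducer of this response.

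Total counts ranged from 8436308 to 12311345 per library. Each tissue carried its own defining markers, with exceptions that touch the results. Brown fat quercetin 3 held 32255 CPM (normalised counts, scaled to a library of common size) of 8 skeletal muscle markers, where its tissue otherwise held 5.40 to 4917 CPM, and 1713 CPM of 6 brown adipocyte markers, where it otherwise held 7326 to 8620 CPM. White fat vehicle 2 held 1139 CPM of the muscle markers, where its tissue otherwise held 13.7 to 83.9 CPM. The summed level of 8 adipocyte markers was 9583 CPM in muscle vehicle 3 and 5078 CPM in muscle quercetin 2 against 658 to 2033 CPM in the other muscle libraries, and only 729.6 CPM in white fat vehicle 2. White fat vehicle 2 and 3 and quercetin 1 and 3 held 489 to 2789 CPM of 5 B cell markers, and the other 2 white fat libraries held 0.960 and 2.81 CPM. Muscle vehicle 1 had 16849 CPM of 5 muscle atrophy genes against 900.3 to 1783 CPM in the other muscle libraries. Muscle quercetin 2 also held 25595 CPM of 5 seminal vesicle and epididymis genes, where the other muscle libraries held 0 to 0.357 CPM, and 538 CPM of the brown adipocyte markers, where they held 27.3 to 57.2 CPM. The count table of white fat vehicle 1 carries the words white-rat in its header and was assigned by the series' own file record; it held the most adipocyte transcripts of its tissue, 42621 CPM. The titles number the libraries 1 to 3 within an arm and use the same numbers in all 3 tissues, without stating that a number is 1 animal. Deviations from the group means correlated at 0.15 to 0.35 in all 9 same-numbered vehicle pairs across tissues, and at -0.26 to 0.23 in the 9 such quercetin pairs. In bulk tissue, fewer cells of a type and less RNA per cell cannot be told apart.

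Brown fat was the tissue with the highest median level for 21 of the 35 genes, skeletal muscle for 8 and white fat for 6. For 6 genes, Gss, Prdx3, Prdx5, Sod2, Gpx3 and Gpx4, all 6 brown fat libraries lay above all 12 libraries of the other tissues. The share of all genes with either pattern is not given here, so these counts have no background. Shares of all genes for pairs of tissues follow. By edgeR's quasi-likelihood test, 18 of the 35 genes were higher and 0 lower in brown fat than in muscle, where 13.9% of 16388 genes tested were higher and 13.3% lower. Between white fat and muscle, 9 were higher in white fat and 13 in muscle, against 28.6% and 21.7% of all genes (50.3% in either direction). Between brown and white fat, 16 were higher in brown fat and 2 in white fat, against 18.3% and 22% of all genes (40.3% in either direction). Without any overlap between the 6 libraries of each tissue, 12 of the 35 were higher and 0 lower in brown fat than in muscle (7.32% and 8.14% of all genes), 3 higher and 4 lower in white fat than in muscle (8.82% and 14.7%), and 10 higher and 0 lower in brown than in white fat (8.74% and 3.98%). The median log2 difference of all genes was 0.03 for brown fat minus muscle, 0.24 for white fat minus muscle and -0.13 for brown minus white fat. Differences between tissues are therefore given below on the log2 scale relative to these medians, with the standard error (SE) of the fit over 6 libraries per tissue and the adjusted p of the unshifted difference. On that scale the median of the 35 genes was 1.01, -0.63 and 0.85 in the same order.

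Counts of calls that involve white fat depended on the scaling. With library totals in place of the trimmed mean of M values (TMM), the median of all genes moved to 0.85 for white fat minus muscle and -0.72 for brown minus white fat, while that of the 35 genes relative to it stayed at -0.59 and 0.85. The calls among all genes then split into 7845 higher and 2085 lower for white fat minus muscle, from 4689 and 3562, and into 1650 and 6870 for brown minus white fat, from 2991 and 3613. Among the 35 genes, 14 were then higher and 3 lower in white fat than in muscle, and 11 higher and 3 lower in brown than in white fat, against 47.9% and 12.7%, and 10.1% and 41.9%, of all genes. The calls lost under that scaling were those of Nfe2l2, Keap1, Gclm, Txnrd1, Txnrd2, Prdx5, Gstm1, Gstm2, Gstp1 and Nqo1 against muscle and of Txnrd1, Prdx2, Sod1, Cat and Gstp1 between the fats, all with an unchanged sign. Statements that libraries of different tissues do not overlap rest on CPM with the TMM factors. With library totals not all of them hold, as for Keap1 and Txnrd2 against muscle and Gclm and Gss between the fats. A further fit left out 4 libraries chosen for their transcripts of other tissues. These were muscle vehicle 3 and quercetin 2, white fat vehicle 2 and brown fat quercetin 3. Brown fat vehicle 1 and 3, at 4917 and 1852 CPM of the muscle markers, and white fat libraries with B cell transcripts stayed in. In that fit 17 genes were higher and 2 lower in brown fat than in muscle (13.3% and 11.9% of all genes). White fat against muscle gave 10 and 8 (24.2% and 19.1%), and brown against white fat 13 and 3 (15.5% and 18% of all genes). With the 9 vehicle libraries alone the calls were 0 and 0 (2.25% and 3.74%), 4 and 1 (9.6% and 11.6%), and 5 and 0 (5.55% and 4.36% of all genes). With the library number within an arm as a block, 18 were higher and 1 lower (13.5% and 13.1% of all genes), 9 and 12 (27.3% and 21.9%), and 16 and 2 (17.8% and 20.7%). The calls that differed under the block were Nqo1 in brown fat against muscle, Prdx5 in white fat against muscle (adjusted p = 0.0508), and Prdx6 (adjusted p = 0.0235) and Gstp1 (adjusted p = 0.0509) between the fats.

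**Figure D1:**
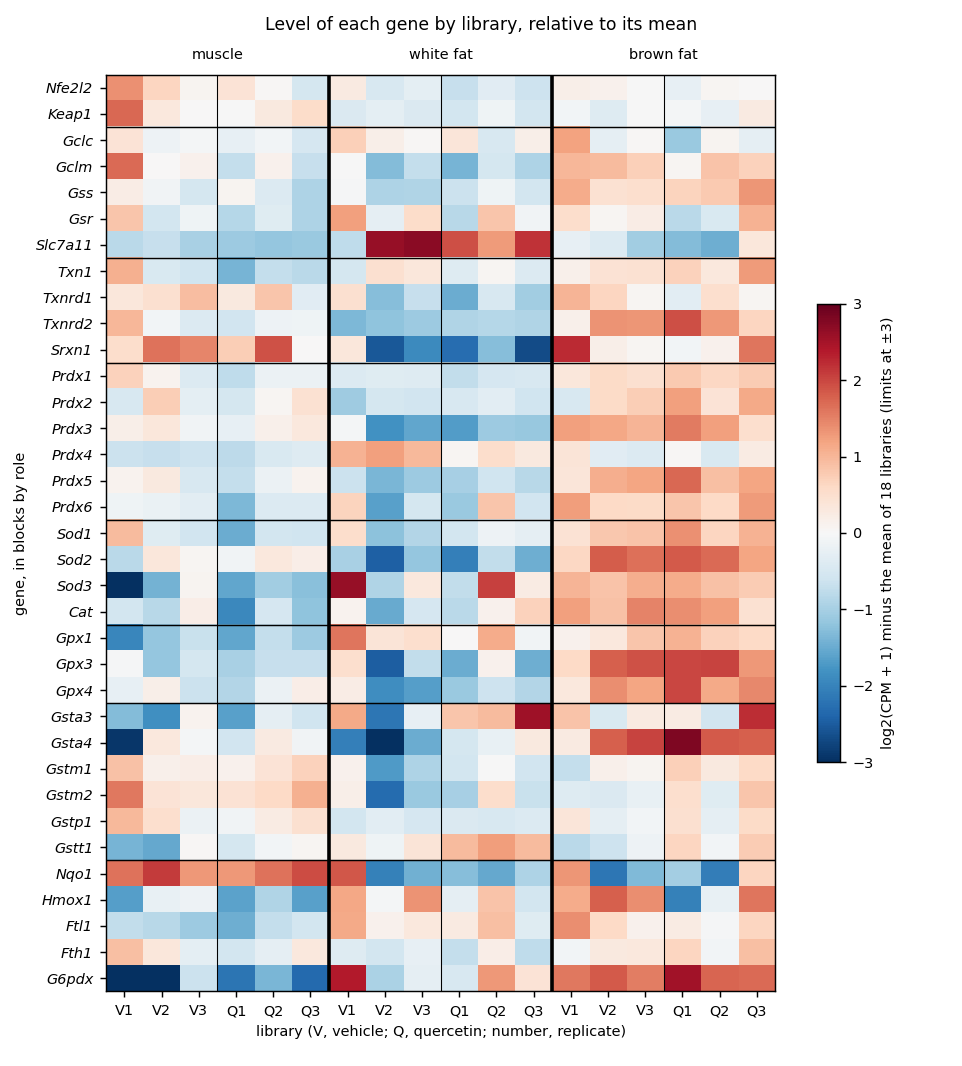
Level of each of the 35 genes (rows, in blocks by role) in each of the 18 libraries (columns, V vehicle, Q quercetin, digit replicate), as log2(CPM + 1) minus the mean of all 18 libraries, with colours limited at ±3. The brown fat columns are mostly red for peroxiredoxins, superoxide dismutases, glutathione peroxidases and G6pdx, Slc7a11 is red in 5 of 6 white fat libraries, and muscle and white fat vehicle 1 stand apart from their neighbours.

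**Figure D2:**
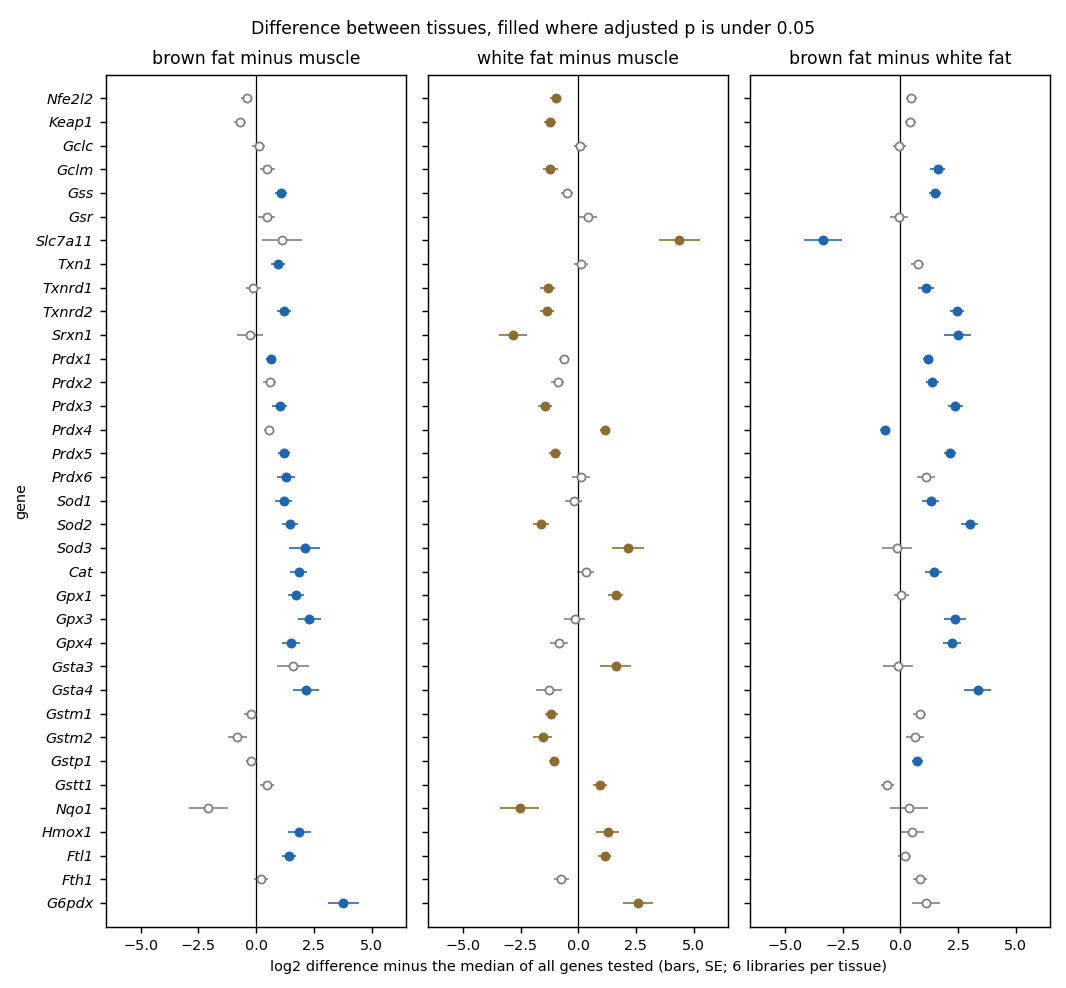
Log2 difference between tissues for each of the 35 genes (rows) relative to the median of all genes tested, with bars of 1 SE and 6 libraries per tissue; filled points passed an adjusted p of 0.05 in edgeR. In brown fat minus muscle the 18 filled points all lie to the right of 0, and in white fat minus muscle 9 lie to the right and 13 to the left.

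The promoter sequences around the start of these genes were searched for the core of the antioxidant response element, because it is the element NRF2 is known to bind. The RefSeq promoter table for build GRCm38.p6, which spans 250 bases before to 50 after a gene's start, held 29 of the 35 genes. The core was written as TGACNNNGC and looked for on both strands. It was found for 8 of the 29 genes (27.6%), namely G6pdx, Gclm, Gsta3, Nfe2l2, Prdx1, Sod1, Srxn1 and Txnrd1, and for 14.0% of all 27025 genes in that table. It lay on the strand of the gene for Gsta3 and Nfe2l2, and the other matches lay on the opposite strand. The 5 matches outside annotated exons are shown with 25 bases on each side, since they belong to genes of glutathione synthesis, thioredoxin recycling, peroxide removal, superoxide removal and conjugation whose levels follow; the capitals mark the core, on either strand, and each line reads 5′ to 3′ on the strand of its gene.
Gclm, chr3:122245398-122245456, plus strand: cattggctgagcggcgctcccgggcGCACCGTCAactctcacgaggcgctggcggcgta
Txnrd1, chr10:82859089-82859147, plus strand: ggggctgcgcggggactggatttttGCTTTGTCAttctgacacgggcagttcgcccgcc
Prdx1, chr4:116685441-116685499, plus strand: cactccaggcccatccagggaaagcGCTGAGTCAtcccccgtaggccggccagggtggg
Sod1, chr16:90220681-90220739, plus strand: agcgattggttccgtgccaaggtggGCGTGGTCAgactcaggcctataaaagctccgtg
Gsta3, chr1:21240439-21240497, plus strand: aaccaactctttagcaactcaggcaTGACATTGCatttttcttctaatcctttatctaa
The first base in capitals lies 134 bases before the listed start of Gclm and 133 before that of Prdx1. It lies 56 bases before that of Sod1 and 121 before that of Gsta3. For Txnrd1 it lies 92 bases before 1 of several listed starts. That start is inside the gene, which begins at 82833951, and the other Txnrd1 windows held no match. A match describes these letters only, and nothing about binding was measured.

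Neither regulator was called higher or lower in brown fat, and both were called lower in white fat than in muscle. Nfe2l2 (ENSMUSG00000015839, chromosome 2, 75675513 to 75704641, GRCm38) ranged from 55.3 to 209 CPM with a median of 95.9 in muscle, from 49.0 to 97.0 CPM with a median of 60.6 in white fat and from 67.2 to 91.5 CPM with a median of 82.3 in brown fat. Keap1, whose product marks NRF2 for destruction, ranged from 66.7 to 222 CPM with a median of 82.8 in muscle, from 44.9 to 61.2 CPM with a median of 49.0 in white fat and from 50.7 to 80.6 CPM with a median of 63.7 in brown fat. Both ranges were widest in muscle, where vehicle 1 held the highest value of each, and the 3 tissues overlapped for Nfe2l2. In CPM, Keap1 did not overlap between white fat and muscle, but this rests on the TMM factors. Its raw counts were 873 of 10283073 in white fat quercetin 2 and 647 of 10311120 in muscle quercetin 1. With library totals the fitted white fat minus muscle difference of Keap1 was -0.31 (edgeR adjusted p = 0.259). White fat minus muscle was -0.98 ± 0.24 for Nfe2l2 (adjusted p = 0.0185) and -1.22 ± 0.26 for Keap1 (adjusted p = 0.00535). Brown fat minus muscle did not pass for either gene (adjusted p = 0.255 and 0.0614).

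Glutathione is made in 2 steps, by glutamate-cysteine ligase and then by glutathione synthetase. Gclc, the catalytic subunit of the ligase, was at a median of 29.1 CPM in muscle, 36.1 in white fat and 29.5 in brown fat, and no tissue difference passed (adjusted p from 0.356 to 0.758). Gclm, the modifier subunit that raises its efficiency, ranged from 24.7 to 137 CPM with a median of 43.5 in muscle, from 15.2 to 41.1 CPM with a median of 23.0 in white fat and from 43.2 to 83.0 CPM with a median of 71.6 in brown fat. All 6 brown fat values of Gclm lay above all 6 of white fat. Brown minus white fat was 1.61 ± 0.33 for Gclm (adjusted p = 0.00305). The second enzyme, Gss, was at 10.0 to 23.5 CPM with a median of 16.7 in muscle, 9.96 to 19.4 CPM with a median of 12.8 in white fat and 27.8 to 51.2 CPM with a median of 33.9 in brown fat. Brown fat exceeded muscle by 1.08 ± 0.26 (adjusted p = 0.00580) and white fat by 1.5 ± 0.26 (adjusted p = 0.00112), with no overlap. The exons of Gss overlap those of Acss2 on the other strand, so reads of that stretch could not be assigned without strand.

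Slc7a11, the transporter that imports cystine for glutathione synthesis, was largely a white fat transcript here. White fat held 0.640, 16.0 and 17.2 CPM in vehicle 1 to 3 and 9.64, 5.75 and 11.6 CPM in quercetin 1 to 3. Vehicle 1 was far below the other 5, and those 5 lay above every muscle and brown fat library. Muscle lay between 0.243 and 0.722 CPM, and brown fat between 0 and 2.51 CPM. White fat minus muscle was 4.38 ± 0.89 (adjusted p = 0.000654) and brown minus white fat -3.35 ± 0.82 (adjusted p = 0.00404). The fitted value of the latter was -5.26 without brown fat quercetin 3 against -3.48 with it. White fat vehicle 1 also lacked B cell transcripts (0.960 CPM over 5 markers), yet white fat quercetin 2, at 2.81 CPM of those markers, held 5.75 CPM of Slc7a11; the part of B cells in this level was not tested. Gsr, which returns oxidised glutathione to its reduced form, was at a median of 47.8, 78.8 and 72.7 CPM in muscle, white fat and brown fat, and its differences did not pass.

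In the thioredoxin system, muscle and brown fat shared high levels of the cytosolic reductase Txnrd1 and of sulfiredoxin, Srxn1, which repairs over-oxidised peroxiredoxins. Txnrd1 ranged from 125 to 302 CPM with a median of 209.8 in muscle, 55.5 to 219 CPM with a median of 86.6 in white fat and 125 to 318 CPM with a median of 194 in brown fat. Srxn1 ranged from 92.0 to 344 CPM with a median of 203 in muscle, 13.3 to 115 CPM with a median of 20.8 in white fat and 86.6 to 434 CPM with a median of 102 in brown fat. White fat was low for both, except for vehicle 1, which held its highest value of each. White fat minus muscle was -2.83 ± 0.60 for Srxn1 (adjusted p = 0.00238) and -1.33 ± 0.33 for Txnrd1 (adjusted p = 0.0135). Brown minus white fat was 2.49 ± 0.59 for Srxn1 (adjusted p = 0.00585). Neither Srxn1 nor Txnrd1 passed for brown fat minus muscle.

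The mitochondrial reductase Txnrd2 and thioredoxin itself, Txn1, were higher in brown fat. Txnrd2 ranged from 19.9 to 60.3 CPM with a median of 27.1 in muscle, 11.1 to 16.1 CPM with a median of 14.5 in white fat and 33.2 to 116 CPM with a median of 75.4 in brown fat. White fat values in CPM lay below all values of both other tissues. Against muscle this rests on the TMM factors, as raw counts were 229 of 10283073 in white fat quercetin 2 and 193 of 10311120 in muscle quercetin 1. With library totals the fitted white fat minus muscle difference was -0.44 (edgeR adjusted p = 0.150). Txnrd2 was 2.47 ± 0.31 in brown minus white fat (adjusted p = 7.34e-05), 1.21 ± 0.30 in brown fat minus muscle (adjusted p = 0.00635) and -1.34 ± 0.30 in white fat minus muscle (adjusted p = 0.00671). Txn1 was at a median of 109.6 CPM in muscle, 156 in white fat and 237 in brown fat, and brown fat minus muscle was 0.93 ± 0.30 (adjusted p = 0.0276).

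Peroxiredoxins reduce hydrogen peroxide with electrons from thioredoxin, and Prdx3 and Prdx5 led among them in muscle and brown fat. Per kilobase of exons, Prdx3 and Prdx5, the members found in mitochondria, had medians in brown fat of 289 and 293 CPM per kb against 137 for the cytosolic Prdx1. In muscle these were 142, 131 and 79.6 CPM per kb, and in white fat 49.6, 70.6 and 66.4 CPM per kb. Prdx3 made up a median of 18.5% of the summed peroxiredoxin level per kb in white fat, 33.5% in muscle and 33.7% in brown fat. In white fat the highest share of Prdx3, 33.0%, came from vehicle 1, and the ranges of muscle (28.6 to 37.3%) and brown fat (21.6 to 41.6%) overlapped.

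By level, Prdx3 ranged from 158 to 238 CPM with a median of 209 in muscle, 52.0 to 178 CPM with a median of 73.3 in white fat and 263 to 552 CPM with a median of 427 in brown fat. Prdx5 ranged from 173 to 352 CPM with a median of 279.9 in muscle, 110.5 to 188 CPM with a median of 151 in white fat and 367 to 938 CPM with a median of 626 in brown fat. For both genes, brown fat lay above the other tissues in every library. Prdx3 exceeded muscle by 1.01 ± 0.31 (adjusted p = 0.0208) and white fat by 2.38 ± 0.32 (adjusted p = 0.000140). Prdx5 exceeded them by 1.2 ± 0.26 (adjusted p = 0.00313) and 2.14 ± 0.27 (adjusted p = 8.34e-05). Of the 6 peroxiredoxins, 4 were called higher in brown fat than in muscle, with Prdx1 and Prdx6 as the others, and 4 higher in brown than in white fat, with Prdx1 and Prdx2 as the others.

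Prdx4, the peroxiredoxin of the endoplasmic reticulum, was the peroxiredoxin called higher in white than in brown fat. It ranged from 6.39 to 8.64 CPM with a median of 7.19 in muscle, 12.1 to 28.6 CPM with a median of 20.5 in white fat and 8.15 to 15.6 CPM with a median of 10.5 in brown fat. All white fat values exceeded all muscle values. White fat minus muscle was 1.16 ± 0.22 (adjusted p = 0.000143), and brown minus white fat was -0.68 ± 0.21 (adjusted p = 0.00806).

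Superoxide dismutases turn superoxide into hydrogen peroxide and catalase removes it, and all 4 of these genes were called higher in brown fat than in muscle. The mitochondrial enzyme Sod2 ranged from 182 to 404 CPM with a median of 351 in muscle, 58.3 to 193 CPM with a median of 129 in white fat and 497 to 1142 CPM with a median of 1027 in brown fat, without overlap between brown fat and the other tissues. Its difference was 1.47 ± 0.35 from muscle (adjusted p = 0.00533) and 3.01 ± 0.37 from white fat (adjusted p = 5.75e-05), and white fat minus muscle was -1.62 ± 0.35 (adjusted p = 0.00439). Cytosolic Sod1 was at a median of 226 CPM in muscle, 252 in white fat and 592 in brown fat, and brown fat minus muscle was 1.19 ± 0.36 (adjusted p = 0.0192). Catalase, Cat, which works in peroxisomes, ranged from 78.1 to 346 CPM with a median of 188 in muscle, 105 to 489 CPM with a median of 269 in white fat and 414 to 841 CPM with a median of 707 in brown fat. All brown fat values of Cat exceeded all muscle values. For Cat, brown fat minus muscle was 1.84 ± 0.37 (adjusted p = 0.00199).

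Sod3, the secreted superoxide dismutase, varied widely among libraries of muscle and of white fat. Muscle held 5.47, 41.0 and 116 CPM in vehicle 1 to 3 and 36.9, 53.6 and 45.6 CPM in quercetin 1 to 3. White fat held 686, 58.8 and 138 CPM in vehicle 1 to 3 and 66.2, 459 and 131 CPM in quercetin 1 to 3. Vehicle 1 was the lowest muscle and the highest white fat library, and the 2 white fat libraries from flow cell H7GKJDSXX, vehicle 1 and quercetin 2, stood above the other 4. These 2 also held the fewest B cell transcripts of white fat (0.960 and 2.81 CPM) and the most adipocyte transcripts (42621 and 22352 CPM). Flow cell and cell content therefore cannot be told apart there. Brown fat was even, with 189.6 to 241 CPM with a median of 215, and lay above every muscle library. Brown fat minus muscle was 2.10 ± 0.67 (adjusted p = 0.0285), a call that ended in 6 of 18 fits without 1 library (muscle vehicle 2 or quercetin 1, 2 or 3, or brown fat vehicle 3 or quercetin 1). White fat minus muscle was 2.15 ± 0.68 (adjusted p = 0.00915), with a fitted value of 1.58 without white fat vehicle 1 against 2.39 with it, and that call ended (adjusted p = 0.181) within flow cell H7H2WDSXX.

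The 3 glutathione peroxidases, which reduce peroxides with glutathione, were also called higher in brown fat than in muscle. Gpx3, the secreted plasma enzyme, ranged from 357 to 772 CPM with a median of 494 in muscle, 141 to 1118 CPM with a median of 383 in white fat and 1208 to 3233 CPM with a median of 2862 in brown fat. Gpx4, which reduces lipid peroxides in membranes, ranged from 303 to 637 CPM with a median of 484 in muscle, 152 to 653 CPM with a median of 281 in white fat and 700.4 to 2237 CPM with a median of 1379 in brown fat. Every brown fat library exceeded every other library for both genes. Gpx3 differed by 2.30 ± 0.49 from muscle (adjusted p = 0.00273) and by 2.38 ± 0.49 from white fat (adjusted p = 0.00233). Gpx4 differed by 1.5 ± 0.39 (adjusted p = 0.00950) and 2.24 ± 0.40 (adjusted p = 0.00104). Per kb, Gpx3 was the highest of the 35 genes in brown fat, at a median of 1579 CPM per kb, followed by Gpx4 at 800.0, and their ranges overlapped.

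Gpx1, the cytosolic and mitochondrial form, was high in both fats. It ranged from 74.0 to 182 CPM with a median of 132 in muscle, 270.1 to 888 CPM with a median of 394 in white fat and 315 to 601 CPM with a median of 452 in brown fat, so neither fat overlapped with muscle. Brown fat minus muscle was 1.73 ± 0.34 (adjusted p = 0.00145) and white fat minus muscle 1.61 ± 0.34 (adjusted p = 0.000441). As a share of the 3 peroxidases per kb, Gpx1 had a median of 39.2% in white fat (35.8 to 61.1%), 14.1% in muscle (6.86 to 19.9%) and 12.5% in brown fat (9.59 to 16.9%), so the white fat shares lay above those of both other tissues.

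**Figure D3:**
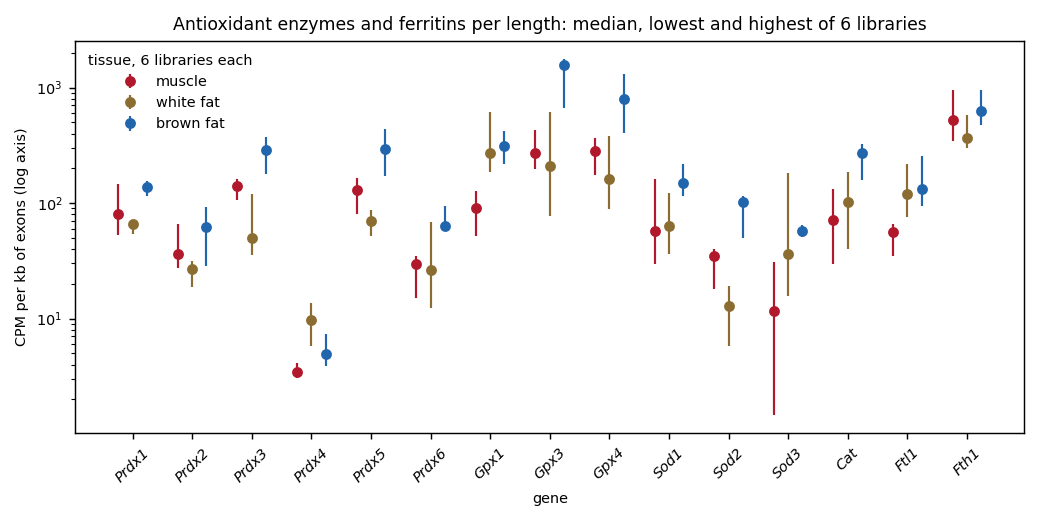
Level per kb of exons (CPM per kb, log axis) of the peroxiredoxins, glutathione peroxidases, superoxide dismutases, catalase and ferritins in each tissue; points are medians and bars run from the lowest to the highest of 6 libraries. Brown fat medians lie above both other tissues for all genes shown except Prdx4, and the bars of Sod3 are long in muscle and in white fat.

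Glutathione transferases attach glutathione to electrophiles. Of the 6, only Gsta4, which handles the lipid peroxidation product 4-hydroxynonenal, was called higher in brown fat than in muscle. Gsta4 ranged from 1.31 to 20.7 CPM with a median of 15.6 in muscle, 0.601 to 20.5 CPM with a median of 8.26 in white fat and 20.2 to 121 CPM with a median of 60.7 in brown fat. Its lowest muscle value came from vehicle 1 and its lowest white fat value from vehicle 2, and the ranges overlapped. Brown fat minus muscle was 2.17 ± 0.57 (adjusted p = 0.00970) and brown minus white fat 3.35 ± 0.59 (adjusted p = 0.000861). The mu and pi class genes Gstm1, Gstm2 and Gstp1 were lower in white fat than in muscle, at -1.17 ± 0.29, -1.54 ± 0.41 and -1.05 ± 0.22, while Gstt1, of the theta class, was higher at 0.94 ± 0.30 (adjusted p = 0.00466). Gsta3, of the alpha class, ranged from 1.56 to 8.81 CPM with a median of 3.87 in muscle and 1.03 to 52.2 CPM with a median of 16.0 in white fat, a difference of 1.62 ± 0.69 (adjusted p = 0.0343) that did not pass in 6 of 18 fits without 1 library (muscle vehicle 1 or 2 or quercetin 1 or 3, or white fat vehicle 1 or quercetin 3). Reads of the similar mu class genes and of Gstp1 and its neighbours may have been shared or dropped at the count step.

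Among the remaining targets, G6pdx, the glucose-6-phosphate dehydrogenase that supplies NADPH, had the largest difference of the 35 genes between brown fat and muscle. Muscle held 3.92, 6.61 and 39.1 CPM in vehicle 1 to 3 and 12.8, 23.4 and 11.6 CPM in quercetin 1 to 3. Brown fat held 187, 225 and 181 CPM in vehicle 1 to 3 and 361, 209 and 203 CPM in quercetin 1 to 3. The highest muscle value came from vehicle 3, which held fat transcripts, and it was still far below every brown fat library. Brown fat minus muscle was 3.78 ± 0.67 (adjusted p = 0.000887). The fitted log2 difference was 4.91 without the 4 libraries chosen above for transcripts of other tissues, against 3.81 with them. White fat ranged from 31.9 to 329 CPM with a median of 67.2 and exceeded muscle by 2.59 ± 0.64 (adjusted p = 0.00215), and its fitted log2 difference was 1.95 without white fat vehicle 1 against 2.83 with it.

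Nqo1, the quinone reductase often used as the reporter of NRF2 activity, was even in muscle and scattered in fat. Muscle ranged from 17.7 to 31.6 CPM with a median of 22.5. White fat held 26.5, 0.858 and 1.81 CPM in vehicle 1 to 3 and 2.13, 1.61 and 3.02 CPM in quercetin 1 to 3. Brown fat held 18, 0.687 and 2.02 CPM in vehicle 1 to 3 and 2.72, 0.815 and 10.9 CPM in quercetin 1 to 3. Vehicle 1 was the highest library in both fats and reached the muscle range there. White fat minus muscle was -2.53 ± 0.85 (adjusted p = 0.0346), a call that ended in 8 of 18 fits without 1 library (muscle vehicle 2 or quercetin 2 or 3, or any white fat library but vehicle 1). Its fitted value was -3.74 without white fat vehicle 1 against -2.29 with it. Brown fat minus muscle did not pass (adjusted p = 0.0852), and with the library number as a block it did, at a fitted -3.07 ± 0.68 (adjusted p = 0.00674).

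Haem oxygenase, Hmox1, which breaks down haem, ranged from 24.5 to 71.2 CPM with a median of 33.7 in muscle, 53.6 to 202 CPM with a median of 109 in white fat and 18.5 to 276 CPM with a median of 190.0 in brown fat. It was higher in both fats than in muscle, at 1.87 ± 0.50 for brown fat (adjusted p = 0.0109) and 1.27 ± 0.50 for white fat (adjusted p = 0.0199), and the fitted value for brown fat was 1.26 without quercetin 3 against 1.90 with it. Ferritin light chain, Ftl1, was also higher in both fats, at 1.41 ± 0.30 (adjusted p = 0.00254) and 1.14 ± 0.30 (adjusted p = 0.00144). Ferritin heavy chain, Fth1, which stores iron with it, was at a median of 1814, 1270.2 and 2179 CPM in muscle, white fat and brown fat, and no difference passed. Ftl1 has named pseudogenes, so its counts are uncertain.

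Other genes of the pathway were counted in lists by function, with log2 differences as fitted. Of 12 regulators and partners of NRF2, 0 were higher and 4 lower in brown fat than in muscle, among them Cul3, the ligase scaffold that KEAP1 serves, at a fitted log2 difference of -1.2 ± 0.23 (adjusted p = 0.00167), Mafg, a small MAF partner of NRF2, at -1.05 ± 0.30 (adjusted p = 0.0180), and Bach1, a repressor of the same elements, at -0.66 ± 0.20 (adjusted p = 0.0247). Of 22 further targets, 12 were higher and 1 lower in brown fat than in muscle. Pgd and Taldo1, enzymes of the pentose phosphate pathway that G6pdx feeds, were at 3.64 ± 0.37 (adjusted p = 2.94e-05) and 3.04 ± 0.38 (adjusted p = 8.47e-05), and Blvrb, a biliverdin reductase, was at 1.96 ± 0.25 (adjusted p = 0.000109). Of 30 further antioxidant enzymes tested, 12 were higher and 4 lower. Of all genes, 13.9% were higher and 13.3% lower in that comparison. Ccs, the copper chaperone of Sod1, was at 1.64 ± 0.28 (adjusted p = 0.000687), Gstt2 at 1.98 ± 0.35 (adjusted p = 0.000927) and Park7, a redox-sensitive chaperone, at -1.46 ± 0.26 (adjusted p = 0.000979).

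Against white fat, the 12 regulators and partners had 4 higher and 2 lower in brown fat, the 22 further targets 9 and 0, and the 30 further enzymes 13 and 2, where 18.3% and 22% of all genes were called. Named by the same rule were Nfe2l1, a relative of NRF2, at a fitted log2 difference of 1.54 ± 0.31, Rbx1, the RING subunit of the KEAP1 ligase, at 0.60 ± 0.18, and Bach2, a repressor active in lymphocytes, at -3.26 ± 0.60. The targets Me1, the malic enzyme that makes NADPH, Pgd and Taldo1 were at 2.52 ± 0.41, 2.12 ± 0.35 and 1.95 ± 0.36, and the enzymes Msrb2 and Txn2, both mitochondrial, and Sesn3 were at 2.94 ± 0.33, 1.81 ± 0.22 and -2.47 ± 0.44 (adjusted p from 2.34e-05 to 0.0148 for these 9 genes). In white fat against muscle the calls were 2 higher and 8 lower, 6 and 2, and 7 and 10 in the same order, where 28.6% of all genes were higher and 21.7% lower, so that the total for the further enzymes was near the 50.3% of all genes. Among them Cul3 was at -1.81 ± 0.24, Nfe2l1 at -1.89 ± 0.31 and Sqstm1, a KEAP1-binding autophagy receptor, at -2.49 ± 0.42, with Osgin1 at -3.07 ± 0.44, Blvrb at 2.04 ± 0.26 and Pgd at 1.52 ± 0.35. The enzymes Park7, Gstm5 and Gstt2 were at -2.44 ± 0.27, -2.72 ± 0.37 and 2.04 ± 0.35 there. Bach2 and Sesn3, named between the fats, varied within white fat. Bach2 was at 17.5 to 71.8 CPM and Sesn3 at 70.3 to 121.5 CPM in the white fat libraries with B cell transcripts. In vehicle 1 and quercetin 2, which lacked them, Bach2 was at 7.26 and 2.45 CPM and Sesn3 at 18.8 and 15.7 CPM. The part of B cells in these levels was not tested.

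Quercetin was then compared with vehicle within each tissue. None of the 35 genes passed in any tissue. In edgeR, 0 of 13562 genes in muscle, 0 of 14919 in white fat and 0 of 13274 in brown fat passed the adjusted threshold of 0.05, so the share called was 0% in each, and the smallest adjusted p was 0.910, 0.9998 and 0.977. At an unadjusted p under 0.05, edgeR gave 406, 122 and 241 genes, of which 2, 3 and 1 were among the 34, 35 and 34 of these genes tested. DESeq2 called 0 genes in muscle, 6 higher and 1 lower in white fat and 1 higher and 1 lower in brown fat, none of them among the 35, and limma voom called 0 in each tissue. Slc7a11 was too low to be tested in muscle and brown fat. In muscle 7 estimates of the log2 fold change were above 0 and 27 below, with a median of -0.27 against -0.03 for all genes. In white fat 16 were above and 19 below (median -0.15 against -0.01), and in brown fat 23 were above and 11 below (median 0.24 against 0.05). Of all genes tested, 47.0%, 48.5% and 54.9% were above 0 in muscle, white fat and brown fat. Over fits without 1 library the median of these genes ranged from -0.37 to -0.15 in muscle, and in brown fat it was 0.11 without quercetin 3. With library totals in place of TMM the numbers above 0 were 12, 17 and 20.

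**Figure D4:**
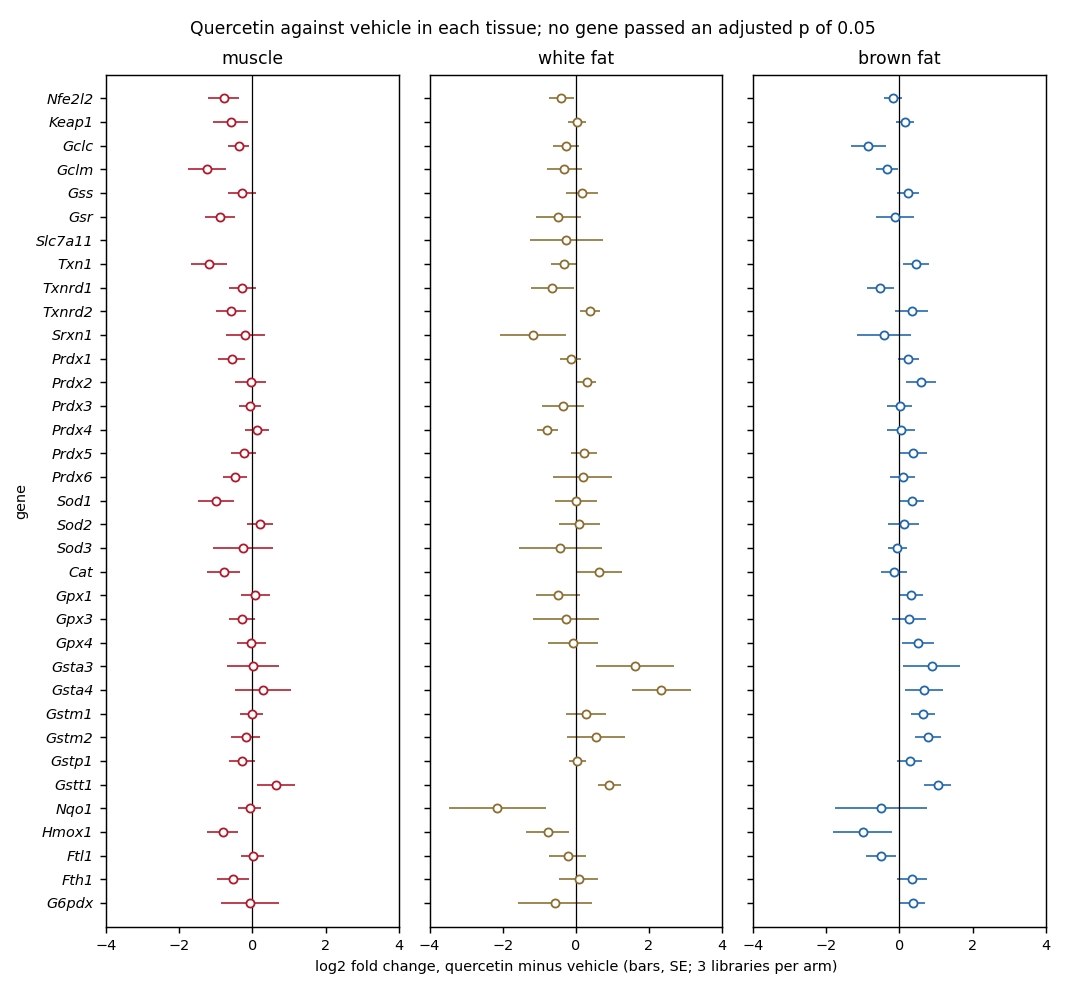
Log2 fold change of quercetin against vehicle for each of the 35 genes (rows) in each tissue, with bars of 1 SE and 3 libraries per arm; Slc7a11 was tested in white fat only. No gene passed an adjusted p of 0.05; in muscle 27 of 34 points lie to the left of 0, and the 6 glutathione transferases lie to the right of 0 in white and brown fat.

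In muscle the smallest p among these genes belonged to Txn1 and Gclm. Txn1 was at 364, 127 and 115 CPM in vehicle 1 to 3 and 65.0, 104 and 99.3 CPM in quercetin 1 to 3. Gclm was at 137, 41.7 and 45.3 CPM in vehicle 1 to 3 and 24.7, 45.6 and 25.2 CPM in quercetin 1 to 3. Vehicle 1 was far above the other 5 libraries for both genes, and apart from it the arms of Gclm overlapped while those of Txn1 lay close together. The log2 fold change of Txn1 was -1.19 ± 0.50 and that of Gclm -1.24 ± 0.52 (SE; adjusted p = 0.910 for each), and without vehicle 1 they were -0.43 and -0.45. Gsr, Sod1, Nfe2l2 and Hmox1, the next by p, had -0.88 ± 0.40, -1.01 ± 0.49, -0.79 ± 0.42 and -0.82 ± 0.44, each with an adjusted p of 0.910. Without vehicle 1 these were -0.37, -0.35 and -0.38 for Gsr, Sod1 and Nfe2l2, and -1.16 for Hmox1, whose lowest value, 24.5 CPM, was that of vehicle 1. Of the 34 genes tested, Txn1 and Prdx6 were lower in all 3 quercetin than in all 3 vehicle libraries, a pattern seen in 4.26% of genes tested (5.11% in the other direction). Slc7a11 showed it too, at under 1 CPM throughout.

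In white fat, Gstt1 and Gsta4 were higher and Prdx4 lower in every quercetin than in every vehicle library. Gstt1, whose product conjugates small halogenated compounds, was at 18.4, 13.4 and 19.7 CPM in vehicle 1 to 3 and 29.2, 36.6 and 29.4 CPM in quercetin 1 to 3. Gsta4 was at 3.20, 0.601 and 5.29 CPM in vehicle 1 to 3 and 11.2, 14.0 and 20.5 CPM in quercetin 1 to 3. Prdx4 was at 25.3, 28.6 and 23.8 CPM in vehicle 1 to 3 and 12.1, 17.1 and 14.5 CPM in quercetin 1 to 3. Vehicle 2, which held muscle and few adipocyte transcripts, was the lowest library for Gstt1 and Gsta4 and the highest for Prdx4. The log2 fold changes were 0.92 ± 0.31, 2.33 ± 0.81 and -0.78 ± 0.28 (SE; adjusted p = 0.9998 for each), and 0.73, 1.83 and -0.76 without vehicle 2. In all, 3 of the 35 genes lay higher without overlap, with Txnrd2 as the third gene, and 2 lower, with Prdx1, against 2.08% and 2.51% of genes tested. Gsta3 was at 1.62 ± 1.07, with 0.80 without quercetin 3 and 2.90 without vehicle 1, and Txnrd2 at 0.38 ± 0.27.

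Nqo1 had the lowest estimate in white fat, -2.15 ± 1.33 (SE), and it rested on 1 library. Its vehicle 1 value was 26.5 CPM, and the other 5 libraries lay between 0.858 and 3.02 CPM. Without vehicle 1 the estimate was 0.80, and within flow cell H7H2WDSXX, which leaves out vehicle 1 and quercetin 2, it was 0.95. The median of the 35 genes also moved, from -0.15 to 0.35 without vehicle 1.

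In brown fat, Gstt1 again had the smallest p. It was at 7.96, 9.21 and 13.2 CPM in vehicle 1 to 3 and 23.6, 14.0 and 25.7 CPM in quercetin 1 to 3. All 3 quercetin values exceeded all 3 vehicle values, by a narrow margin between quercetin 2 and vehicle 3. The log2 fold change of Gstt1 was 1.05 ± 0.37 (SE; adjusted p = 0.977), and 0.87 without quercetin 3, the library with the most muscle transcripts. Gstm2 was at 28.4, 27.6 and 32.1 CPM in vehicle 1 to 3 and 54.1, 29.2 and 68.1 CPM in quercetin 1 to 3. Gstm1 was at 59.3, 108 and 104 CPM in vehicle 1 to 3 and 161, 121 and 149 CPM in quercetin 1 to 3. The arms of Gstm2 overlapped, with quercetin 2 among the vehicle values, and those of Gstm1 did not. Their log2 fold changes were 0.78 ± 0.35 and 0.65 ± 0.33, and 0.49 and 0.62 without quercetin 3. Without vehicle 1, Gstm1 was at 0.41. Gclc, Prdx2 and Txnrd1 had -0.85 ± 0.48, 0.59 ± 0.41 and -0.52 ± 0.37, and without vehicle 1 they were at -0.29, 0.29 and -0.30. The genes higher without overlap were 3 of 34, Gstt1, Gstm1 and Prdx1, against 3.17% of genes tested, and 0 were lower without overlap, against 2.86%.

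The 6 glutathione transferases had an estimate above 0 in 6 of 6 cases in white fat and in 6 of 6 in brown fat, with a median log2 fold change of 0.73 in each, and in 3 of 6 in muscle, with a median of -0.00. The medians of all genes were -0.01, 0.05 and -0.03. The pattern holds for the 6 listed genes and not for every Gst gene counted. Of the others, Gsto1, Gstt2 and Gstt3 had a lower mean CPM with quercetin in white fat, and Gsto1 also in brown fat. Gstk1, Gstm4, Gstm5 and Gstz1 had a higher mean in both fats. None of the 6 passed in any tissue, and they share a family and partly a gene cluster, so they are not independent of each other. Gstt1 in muscle was at 4.99, 4.45 and 15.2 CPM in vehicle 1 to 3 and 10.0, 13.9 and 15.5 CPM in quercetin 1 to 3. Vehicle 3, with fat transcripts, lay among the quercetin values, and the estimate was 0.66 ± 0.52. The quercetin effect averaged over the 3 tissues was a contrast added after the values of Gstt1 were seen. It was 0.89 ± 0.25 (SE) for Gstt1 with an adjusted p of 0.841. In edgeR 0 of 16388 genes passed, with 898 (5.48%) at an unadjusted p under 0.05, among them 5 of the 35. Of these 5, Gstt1 and Gsta4 (1.12 ± 0.45) were higher with quercetin. Nfe2l2, Gclm and Hmox1 were lower, at -0.44 ± 0.19, -0.61 ± 0.27 and -0.87 ± 0.40. That fit treated the 18 libraries as independent, so its SE and counts take no account of the shared numbers and of the correlation between same-numbered vehicle libraries.

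**Figure D5:**
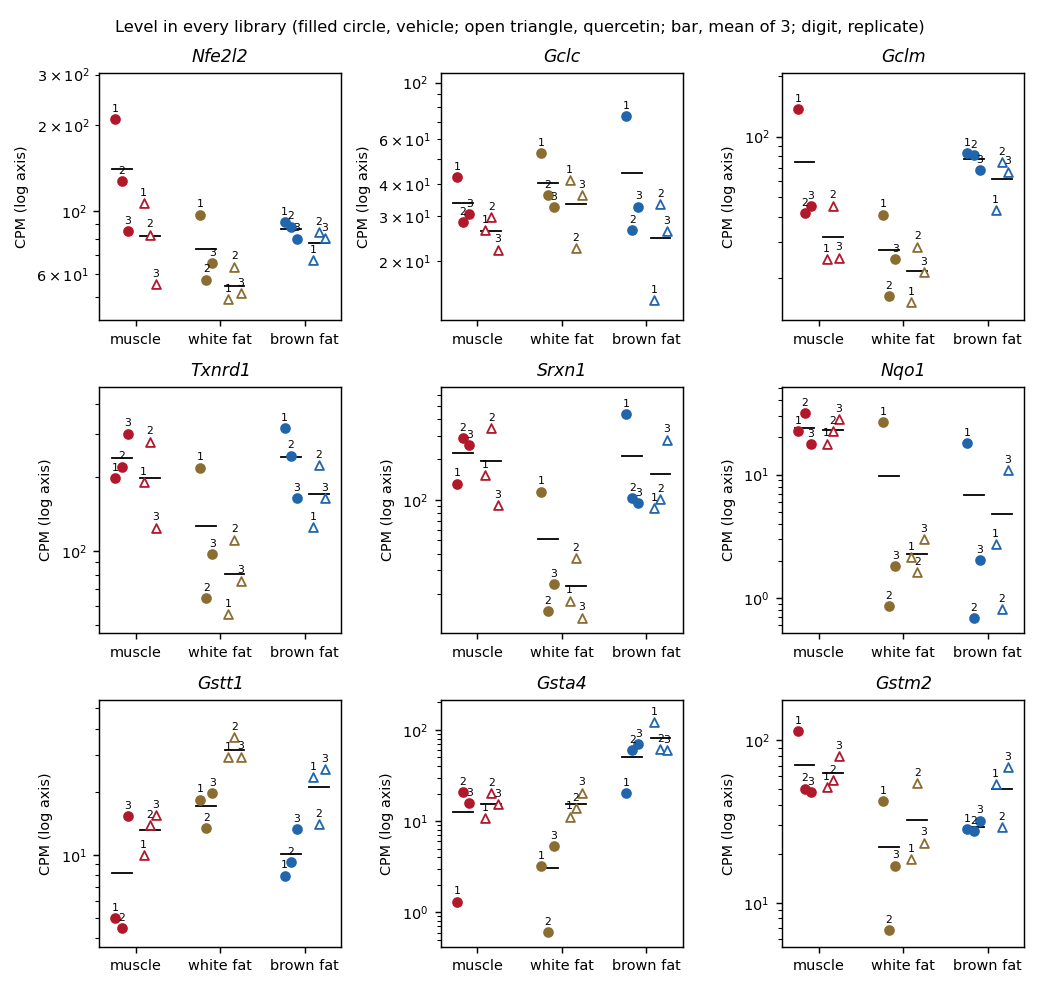
CPM on a log axis in every library for 9 of the genes, by tissue (circles vehicle, triangles quercetin, bars the mean of 3, digits the replicate). Vehicle 1 is the highest library in all 3 tissues for Nfe2l2, Gclc and Gclm and in both fats for Txnrd1, Srxn1 and Nqo1, and the quercetin points of Gstt1 lie above the vehicle points in both fats. Of all genes counted in the 3 tissues, 6.09% had vehicle 1 highest in each.

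Whether the quercetin effect differed between tissues was tested as an interaction in the fit of all 18 libraries. By edgeR, 0 of 16388 genes passed for brown fat minus muscle, white fat minus muscle and brown minus white fat (0% each), with 223, 231 and 173 genes at an unadjusted p under 0.05, of which 1, 1 and 0 were among the 35. DESeq2 called 2, 7 and 13 genes, none of them among the 35. The largest of these differences for Gstt1 was 0.34 ± 0.60 on the log2 scale. That of Txn1 between brown fat and muscle was 1.57 ± 0.60 (SE; adjusted p = 0.9999). The highest Txn1 values of these tissues were 364 CPM in muscle vehicle 1 and 424 CPM in brown fat quercetin 3. Within muscle, its quercetin estimate was -0.43 without vehicle 1 against -1.19 with it.

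Among the other genes of the pathway, 0 passed for quercetin in edgeR in any tissue. Of the 12 regulators and partners, 1 had an estimate above 0 in muscle, 2 in white fat and 3 in brown fat. Of all genes tested, 47.0%, 48.5% and 54.9% had an estimate above 0 in the same order. Those with the smallest p were Maff, a small MAF protein, at -2.04 ± 0.83 in muscle and -1.85 ± 0.96 in white fat, and Sqstm1 at -0.66 ± 0.34 in brown fat. Maff was at 311 CPM in muscle vehicle 1 and 160.2 CPM in white fat vehicle 1, above every other library of those tissues. Of the 22 further targets, 11, 13 and 13 estimates were above 0, with Htatip2 at -1.05 ± 0.50 in muscle, Me1 at 1.77 ± 0.60 in white fat and Slc3a2, the partner subunit of the Slc7a11 transporter, at -0.98 ± 0.40 in brown fat. Of the further antioxidant enzymes, 14 of 29, 15 of 30 and 23 of 30 were above 0. Those with the smallest p were Sesn1 at -2.54 ± 1.02 in muscle, Gpx8 at 1.89 ± 0.58 in white fat and Sesn2 at -1.14 ± 0.41 in brown fat. Sesn1 reached 678 CPM in muscle vehicle 1, while every other muscle library lay between 36.9 and 54.2 CPM. Htatip2 reached 77.4 CPM in that same library, and elsewhere in muscle it lay between 14.1 and 27.5 CPM. Apart from vehicle 1, the muscle arms of both genes overlapped. The adjusted p was 0.910, 0.9998 and 0.977 for the genes named in muscle, white fat and brown fat.

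The vehicle library numbered 1 was often the highest for these genes in muscle and white fat, which was noticed after their values were seen. It was the highest of 6 libraries for 16 of 34 genes in muscle, 17 of 35 in white fat and 8 of 34 in brown fat, against 33.1%, 25.1% and 23.7% of all genes tested there, so the brown fat share was near that of all genes. It was the lowest library for 6, 5 and 14 of them, against 38.1%, 34.6% and 23.8% of all genes. In brown fat, quercetin 1 was the highest for 13 of 34 and quercetin 3 for 10, against 18.5% and 28.7% of all genes tested there. The share of quercetin 3 was thus near that of all genes. Vehicle 1 was the highest in all 3 tissues for Nfe2l2, Gclc and Gclm. These were 3 of the 34 genes counted in all tissues, against 6.09% of 12261 genes, so this count too was near the share of all genes. For any other library number the share of all genes was 0.212 to 0.604%. Gclc was at 74.1, 26.4 and 32.7 CPM in vehicle 1 to 3 and 14.0, 33.5 and 26.2 CPM in quercetin 1 to 3 in brown fat. Srxn1 was at 434, 104 and 95.1 CPM in vehicle 1 to 3 and 86.6, 100.9 and 281 CPM in quercetin 1 to 3 there. Vehicle 1 lay well above the other 5 for Gclc, and for Srxn1 quercetin 3 was the next highest. The titles give these 3 libraries the same number and do not state that they came from 1 animal. The summed level of 7 immediate early genes was also highest in vehicle 1, at 2885 CPM in muscle against 493 to 1986, 2991 CPM in white fat against 281 to 823, and 1067 CPM in brown fat against 181 to 720 CPM. The part of that early gene level in the values of these genes was not tested.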

How the data were processed

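Libraries were made with the NEBNext Ultra RNA kit from TRIzol-extracted total RNA, per the labels' protocols. The authors deposited 1 table of raw counts per gene and library. HISAT2, HTSeq, DESeq2 and mm10 are named in the submitters' processing notes; their versions, the strand setting of the counting and the annotation release stand in none of the sources used here. Lines that name no gene were left out of library sizes; reads in no feature were 2.53 to 9.11% and ambiguous reads 6.47 to 9.84% of a table. Symbols were found in GENCODE M21 for 53360 of 53465 identifiers.

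Counts were tested with edgeR 4.0.16 in R 4.3.3 (filterByExpr with a minimum count of 10 and total of 15, TMM factors, quasi-likelihood test, Benjamini-Hochberg adjustment over all genes tested, threshold 0.05). Each quercetin effect was fitted on the 6 libraries of its tissue, and tissue differences and interactions on all 18. DESeq2 1.42.0 and limma 3.58.1 (voom) were alternatives, besides other scaling, no filter, left-out libraries, 1 flow cell and vehicle libraries only. The edgeR step was tested on simulated data. CPM used the TMM factors of all 18 libraries.

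The labels do not say that replicates were separate animals, so each p-value reflects only how far these libraries differ, which may be technical. Replicate pairs differed by more than sampling noise, with a chi-square of at least 27.0 times its degrees of freedom. An exact permutation test of 3 against 3 cannot go below 0.1 and was not used. The genes and lists were chosen with earlier results of these data known. Genes named were the 6 with the smallest p for quercetin in each tissue, the 6 called genes with the largest difference between tissues, and up to 3 of each further list; other members are given with their level. Deviations of same-numbered vehicle and quercetin libraries of a tissue correlated at -0.705 to 0.180, so the numbers did not pair the arms. Across tissues, the correlation passed 0.1 in 9 of 9 vehicle pairs and 1 of 9 quercetin pairs; the titles share the numbers, and the blocked fit is given beside the tissue differences where it changed a call. Genes with overlapping neighbours (Keap1, Gclm, Gss, Txnrd2, Prdx2, Prdx5, Ftl1, G6pdx) or near copies (Prdx6, Gpx4, the mu class transferases, Gstp1, Ftl1) are uncertain to that extent.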

Additional observations from a re-analysis of the deposited data

How the results depend on the processing

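For quercetin, edgeR's 0 calls became 20 higher and 12 lower in muscle with no filter on low counts; DESeq2 gave 6 higher and 1 lower in white fat and 1 higher and 1 lower in brown fat. Without 1 brown fat library the calls there ranged from 0 to 1 higher, with 1 without quercetin 3. Nqo1 in white fat changed sign, to 0.80 without vehicle 1 and 0.95 in flow cell H7H2WDSXX alone, and ranged from -2.69 to 0.80 over fits without 1 library. DESeq2 called 2, 7 and 13 genes for the interactions, where edgeR called 0. Of the 35 genes, those lower in brown fat than in muscle numbered 0 with edgeR, 2 with DESeq2 and 1 with voom. They numbered 2 without the 4 libraries chosen for other tissues' transcripts, and 0 to 1 without 1 library. With library totals, white fat minus muscle had 7845 higher and 2085 lower genes (14 and 3 of the 35) and brown minus white fat 1650 and 6870; with no filter, 1 of the 35 was lower in brown than in white fat. With vehicle libraries alone the genes called were 327 and 544, 1397 and 1694, and 808 and 634 for brown fat minus muscle, white fat minus muscle and brown minus white fat, and 0 and 0, 4 and 1, and 5 and 0 of the 35. Without the 4 chosen libraries, 8 of the 35 were lower in white fat than in muscle. With the replicate number as a block, quercetin gave 0 calls in each tissue. In the blocked fit 1 of the 35 genes was lower in brown fat than in muscle, against 13.1% of all genes. Under the block, 4 calls of tissue differences in these genes changed. The cause of these differences was not tested, except that fits with fewer libraries hold fewer samples. The average effect over tissues was chosen after seeing the data. Of named genes, Nqo1 in white fat had another sign in 2 recomputed values; medians over the 35 genes had one in 13, in white fat, the white fat minus muscle difference and the interaction of the fats. Slc7a11 had too few counts for a test of quercetin in muscle and brown fat.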
